A study of Homo sapiens with 3 samples.

Results

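MicroRNA precursors were examined as the 1855 rows that the gene tables give to single microRNA hairpins. They were chosen by name alone: a row was kept when its gene name is MIR followed by a number or by LET7 with an optional suffix, when it is not a microRNA host gene, and when it lies on a chromosome rather than on an alternate or unplaced sequence. These 1855 rows are part of the 43389 rows present in the tables of all 3 libraries, of which 39320 lie on chromosomes. The rows are between 41 and 180 bases long, with a median of 80 bases. Of the 1855 rows, 1159 (62.5%) lie wholly inside the row of another gene on the same strand and are called intragenic here, and that gene is called the host. A further 220 lie inside a row on the opposite strand only, and 476 lie outside the other rows.

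MicroRNAs are made in steps. A long primary transcript folds into a hairpin, the nuclear enzyme Drosha cuts the hairpin out, and the cytoplasmic enzyme Dicer cuts it again and leaves the 5p and 3p arms, of which one is loaded into an Argonaute protein. The bases near the 5′ end of the loaded arm, known as the seed, pair with target mRNAs and lower their translation and stability. Many hairpins lie in introns or exons of other genes and are transcribed with them, and a mirtron is a hairpin that spans a whole short intron, so that splicing takes the place of Drosha. In liver, MIR122 is the best known microRNA, and MIR21, the let-7 family and the MIR17 clusters are widely studied in liver cancer.

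The data are 3 RNA-seq libraries labelled HepG2, genotype WT, replicates 1 to 3. HepG2 is a long-established line of human liver cancer cells, and the libraries form 1 condition with no treatment and no second genotype. The RNA was extracted with TRIzol and is labelled as polyadenylated, and 150 bp paired-end reads were made. Mature microRNAs have no polyadenylated tail, and the values below are not read as levels of mature microRNA. Which transcripts gave the signal over a hairpin was not tested. The labels do not say whether the replicates came from separate cultures, so the spread between them may be technical.

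The label was checked against marker genes. Of 8 hepatocyte genes, ALB, APOA1, APOB, SERPINA1 and FGB were listed at 0 TPM in all 3 libraries, and AFP, TTR and TF did not exceed 0.203 TPM in any library. The epithelial keratins KRT8 and KRT18 stood at 2609.6 ± 28.6 and 2017 ± 102 TPM (mean ± SD, n = 3). The other epithelial markers were low, EPCAM with at most 0.0901 TPM and CDH1 with 1.02 ± 0.0382 TPM. Of the blood markers, PTPRC and CD3E were at 0 and HBB had 0.679 ± 0.123 TPM. The highest of the blood, muscle, neuron and endothelium markers was SNAP25 with 2.74 ± 0.255 TPM. The defining hepatocyte genes were thus listed at or near 0, which goes against the label. A listed 0 in tables without counts can be a failed estimate, and whether the cells are HepG2 was not tested.

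Each row carries 3 measures. Coverage is a mean read depth, read here for a precursor as that over the bases of its row. Over which bases it was taken in rows of long genes is not given in the sources used here. FPKM is scaled by length and library size, and TPM rescales FPKM to the same total in each library. The files hold no read counts, so read depth is not known. Relative depth was read from the most frequent ratio of coverage to FPKM, after rounding, among rows above 1 FPKM in each library. It was 13.3, 12.8 and 11.5 in replicates 1, 2 and 3.

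Hairpin sequences of 4 precursor rows are shown because they end like introns. MIR6765, MIR6775 and MIR877 lie directly at an exon, as did 44 of the 71 intronic rows with at least 1 TPM in all libraries. Of all 990 intronic rows, 164 lie so. In 1 of the 44 the exon only precedes the 5p end. MIR6789 lies in an exon of some transcripts of its host. The sequences are from RefSeq for GRCh38.p14 and are written 5′ to 3′ with the 3p arm in capitals. Each of these hairpins ends in AG, the letters that end most human introns. MIR6765 is at chr14:105150778-105150864 in JAG2, MIR6789 at chr19:2235829-2235926 in PLEKHJ1, MIR6775 at chr16:87834592-87834660 in SLC7A5, all on the minus strand, and MIR877 at chr6:30584332-30584417 on the plus strand in ABCF1.
MIR6765: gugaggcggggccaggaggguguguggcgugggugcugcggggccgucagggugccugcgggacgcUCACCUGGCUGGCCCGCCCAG
MIR6789: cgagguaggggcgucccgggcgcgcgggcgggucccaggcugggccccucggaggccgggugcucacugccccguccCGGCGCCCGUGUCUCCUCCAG
MIR6775: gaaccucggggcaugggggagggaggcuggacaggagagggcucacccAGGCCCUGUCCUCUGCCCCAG
MIR877: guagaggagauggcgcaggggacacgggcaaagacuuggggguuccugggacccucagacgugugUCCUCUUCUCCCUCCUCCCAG

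Mature arms are shown for the rows with the highest TPM and for the MIR25 cluster, with the seed (bases 2 to 8) in capitals. They are shown because the length behind the deposited FPKM equalled an arm or lay between the arms of these rows. It lay between the arms for MIR3064, MIR25, MIR93 and MIR106B.
miR-3064-5p: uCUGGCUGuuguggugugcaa
miR-3064-3p: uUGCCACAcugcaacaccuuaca
miR-5047: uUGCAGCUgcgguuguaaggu
miR-614: gAACGCCUguucuugccaggugg
miR-1244: aAGUAGUUgguuuguaugagaugguu
miR-6765-3p: uCACCUGGcuggcccgcccag
miR-6775-3p: aGGCCCUGuccucugccccag
miR-25-3p: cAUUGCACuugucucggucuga
miR-93-5p: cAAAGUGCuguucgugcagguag
miR-106b-5p: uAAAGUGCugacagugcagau

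Most precursor rows were empty or nearly so. In all 3 libraries, 500 of 1855 precursor rows (27%) were above 0 TPM, against 47.2% of all rows on chromosomes. At least 1 TPM in all 3 libraries was reached by 158 precursor rows (8.52%), against 33.8% of all rows, and at least 10 TPM by 31 (1.67%), against 20.7%. A value of 0 TPM in every library was listed for 987 precursor rows (53.2%), against 40.7% of all rows. Rows of small nucleolar and Cajal body RNAs, which are also short, often intronic and not polyadenylated, were above 0 in all libraries for 344 of 568 (60.6%) and reached 1 TPM for 214 (37.7%).

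A value above 0 often stood for very little signal. The product of coverage and row length gives the number of aligned bases in a row. It was below 22 bases, about 1 mature arm, in 219 of the 675 rows above 0 in replicate 1, in 203 of 700 in replicate 2 and in 220 of 663 in replicate 3. It was below 1 base in 112, 104 and 100 rows, which cannot come from whole reads. The median row above 0 held 54.5, 60.8 and 44 aligned bases in replicates 1, 2 and 3, less than the length of 1 read. With at least 22 aligned bases required in every library, 318 rows remained in place of 500.

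The summed TPM of the precursor rows was 1806, 1989 and 1835 in the 3 libraries, a mean of 1877 ± 98.6, or 0.188% ± 0.00986 of all TPM. Few rows made up this sum. The 15 highest rows held 35.5% of it, and MIR3064 alone held 7.72%.

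The highest row was MIR3064, which lies in DDX5, the gene of an RNA helicase that is a partner of Drosha. MIR3064 (chr17:64500774-64500839, minus strand) had 149, 136 and 150 TPM in replicates 1, 2 and 3. Its host DDX5 had 328, 289 and 302 TPM. In GENCODE v44, MIR3064 falls in exons of DDX5 transcripts that retain an intron or are targets of nonsense-mediated decay, and not in an exon of a coding transcript. MIR5047 lies in the same gene, in an exon of retained-intron transcripts only, and was the second highest row with 57.7, 54.3 and 61.8 TPM. Both rows varied little between libraries, and the lowest value of MIR3064 was above the highest value of any other precursor row.

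The rows next in order lay close together. MIR614 had 51.6, 51.7 and 54.1 TPM. It lies outside the other rows, but GENCODE v44 places it in an exon of GPRC5A, a retinoid-induced receptor gene whose own row had 136, 117 and 114 TPM. MIR6765 had 43.4, 55.4 and 53.4 TPM and lies in an intron of JAG2, a Notch ligand. MIR1244-2, MIR6789 and MIR6775 had 49.5 ± 2.57, 46.4 ± 3.08 and 46.2 ± 7.47 TPM. The values of MIR5047 lay above those of MIR614 in every library and did not overlap with them. From MIR614 down to MIR6775, neighbours in the order differed by no more than about the spread of their libraries. The hosts of these rows spanned a much wider range, from 48.6 ± 1.11 TPM for JAG2 and 54.7 ± 2.55 for PLEKHJ1 to 1168 ± 49.0 for SLC7A5, a transporter of large neutral amino acids.

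The remaining 8 of the 15 highest rows had means between 23.5 and 31.8 TPM. MIR6843 had 29.7, 25.6 and 40.3 TPM in CLU, the gene of the secreted chaperone clusterin with 908 ± 32.2 TPM. MIR4690 had 26.9, 24.8 and 33.4 TPM in PCNX3. MIR6859-1 had 22.7, 29.1 and 32.2 TPM in the pseudogene WASH7P, whose own row had 25.3 ± 0.168 TPM. The groups of 3 values of these rows overlapped one another. MIR4523 had 31.5, 29.3 and 22 TPM outside the other rows. MIR6821 had 35.2, 23.7 and 23.2 TPM in PIM3, a serine/threonine kinase gene. MIR1304 had 33.2, 21.5 and 25 TPM in TAF1D, a gene of the RNA polymerase I machinery. MIR6727 had 27, 29.9 and 19.7 TPM in INTS11, the gene of the endonuclease of the Integrator complex. MIR3648-1, which lies in a ribosomal RNA unit, had 15.7, 47.4 and 7.25 TPM and was the one row of the 15 whose libraries were far apart.

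**Figure D1:**
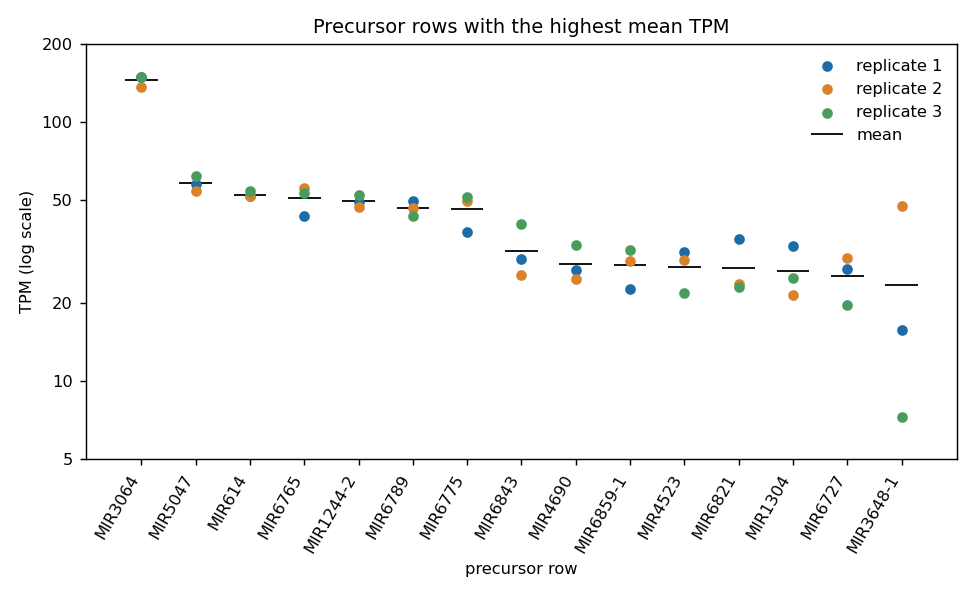
TPM (y axis, log scale) of the 15 precursor rows with the highest mean TPM (x axis), with 1 coloured point per library and a bar at the mean. MIR3064 stands above the rest at 136 to 150 TPM, and MIR3648-1 has the widest spread, from 7.25 to 47.4 TPM.

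The TPM of precursor rows stood on a different length than the coverage. Within a library, coverage per unit of FPKM rises with the share of the row that was used as its length. The most frequent ratio was taken as that of a row used whole. Dividing by that ratio gives the length behind the FPKM. For the 158 rows with at least 1 TPM in every library this length had a median of 22 bases, with an interquartile range of 21 to 23, although the rows themselves had a median of 72 bases. MIR614 gave 23.0 bases for a row of 90, and miR-614 is 23 bases long. MIR3648-1 gave 21.0 bases for a row of 180.

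In most rows with at least 1 TPM, the length matched the mature arms listed by RefSeq. Among rows with at least 1 TPM and listed arms, it lay within the shortest and longest arm for 174 of 186 rows in replicate 1, 189 of 205 in replicate 2 and 181 of 194 in replicate 3. It equalled the length of 1 arm within 0.15 base in 131, 139 and 128 rows. MIR3654, in an exon of CHCHD3, was the one row of this kind in each library whose length was that of the whole row, 56.0 bases. Where a row has 2 arms of unequal length, the arm that matched can be told: it was the 3p arm in 32, 38 and 41 rows and the 5p arm in 11, 7 and 6 rows. Over all 3 libraries, 25 of 74 such rows matched the 3p arm each time, 4 the 5p arm each time, and 45 did neither. MIR6765, MIR6775 and MIR6789 gave 21.0 bases each, the length of the 3p arms shown in capitals in their hairpins and not of their 5p arms of 25, 25 and 24 bases. MIR877, the other hairpin shown, gave 20.0 bases, the length of its 5p arm and not of its 3p arm of 21 bases. The match was less frequent among all rows above 0 TPM. There the length equalled 1 arm in 194 of 675, 195 of 700 and 179 of 663 rows in replicates 1, 2 and 3. It lay between the arms in 54, 63 and 64 rows, and between an arm and the whole row in 214, 236 and 207. Rows with under 10 aligned bases, 139, 126 and 142, were not classed. A short length raises TPM, so the minimum of 1 TPM may favour rows of arm length.

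The short length raised TPM. Dividing aligned bases by the whole row in place of the length behind the FPKM lowered the TPM of the 158 rows by a median factor of 3.28. It left 91 of them at or above 1 TPM in every library, and took the summed TPM from 1877 ± 98.6 to 567 ± 24.5. MIR3064 then had 48.5 ± 2.45 TPM and MIR614 13.4 ± 0.360 TPM. TPM of a precursor row and TPM of a long gene are thus set on different lengths, and the median ratio between them is given below in coverage too.

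**Figure D2:**
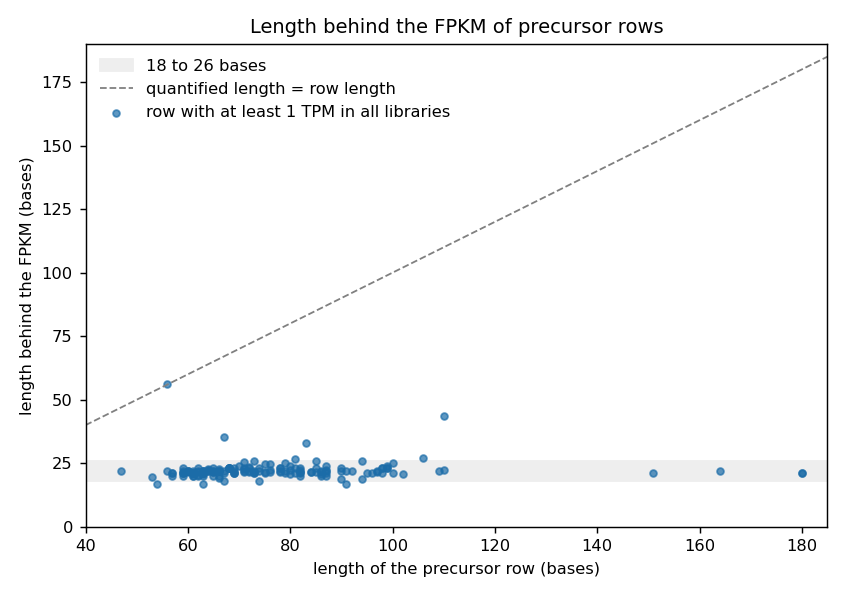
Length behind the FPKM (y axis, bases, mean over the libraries) against the length of the row (x axis, bases) for the 158 precursor rows with at least 1 TPM in all libraries, 1 point per row. Most points lie in the shaded band of 18 to 26 bases whatever the row length, far under the dashed line of equality, on which MIR3654 lies at 56.0 bases.

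Intragenic precursors were detected more often than the others. Above 0 TPM were 46.9%, 48.3% and 46.1% of the 1159 intragenic rows in replicates 1, 2 and 3, and 18.8%, 20.1% and 18.5% of the 696 other rows. The 3 libraries of intragenic shares did not overlap with those of the others. The difference was 28.1, 28.2 and 27.5 percentage points, a mean of 28 ± 0.360, with p = 0.25 by an exact permutation test that flips signs over the 3 libraries (two-sided), the smallest p that 3 libraries can give. At 1 TPM or more the shares were 15.9% ± 0.933 of intragenic and 3.98% ± 0.362 of other rows. In all libraries, 138 intragenic and 20 other rows reached 1 TPM.

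Rows inside a gene on the opposite strand only resembled rows outside genes more than intragenic rows. They were above 0 in 23.2%, 24.5% and 21.4% of 220 cases, against 16.8%, 18.1% and 17.2% of the 476 rows outside. At 1 TPM or more they were level, with 3.64% ± 0.455 and 4.13% ± 0.485. The strand setting of the authors' counting is not given in the sources used here, so reads of the opposite gene may be among these values.

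Detection differed by position among annotated transcripts. GENCODE v44 was used to place each precursor against the transcripts on its strand, whether or not the precursor has a host row. The 61 rows that lie in exons of retained-intron transcripts only were above 0 in 95.1% of cases in each library, and 32 of them (52.5%) had at least 1 TPM in all libraries. This share was 16.7% of the 222 rows that lie wholly in an exon of another transcript, 10.3% of the 87 rows partly in an exon, 7.17% of the 990 intronic rows and 1.82% of the 495 rows outside annotated transcripts. These classes mix rows with and without a host: 163 of the 222, 832 of the 990 and 34 of the 495 are intragenic.

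Intronic rows beside an exon were detected more often than those farther away. Of the 164 rows whose hairpin ends directly at an exon, 101 (61.6%) were above 0 in all libraries and 44 (26.8%) had at least 1 TPM. Both shares fell with distance. At 2 to 150 bases 8 of 72 rows (11.1%) had at least 1 TPM, from there to 1000 bases 12 of 237 (5.06%), and beyond 1000 bases 7 of 517 (1.35%). Hosts also differed, with a median of 31.6 TPM at the border, 7.55 at 2 to 150 bases, 9.07 from there to 1000 and 4.15 beyond. The exon followed the 3p end of the hairpin in 143 of the 164 border rows, preceded the 5p end in 4 and lay on both sides in 17, as in a mirtron, and 8 of those 17 had at least 1 TPM.

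The same order of intronic positions was seen among hosts of at least 10 TPM, although host levels were not equal there. The median host had 50.7 TPM at the border, 51 TPM for retained-intron exons, 48.5 TPM at 2 to 150 bases and 25.4 TPM farther into an intron. At least 1 TPM in all libraries was reached by 30 of 55 rows (54.5%) in retained-intron exons, by 42 of 126 (33.3%) at an exon border, by 6 of 31 (19.4%) at 2 to 150 bases and by 13 of 234 (5.56%) farther into an intron. Rows wholly in another exon were split. Of 82 such rows, 21 (25.6%) reached 1 TPM but 54 (65.9%) stayed under 0.1 TPM in every library, although their hosts had a median of 50.3 TPM. At the border only 8 of 126 rows stayed under 0.1 TPM.

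**Figure D3:**
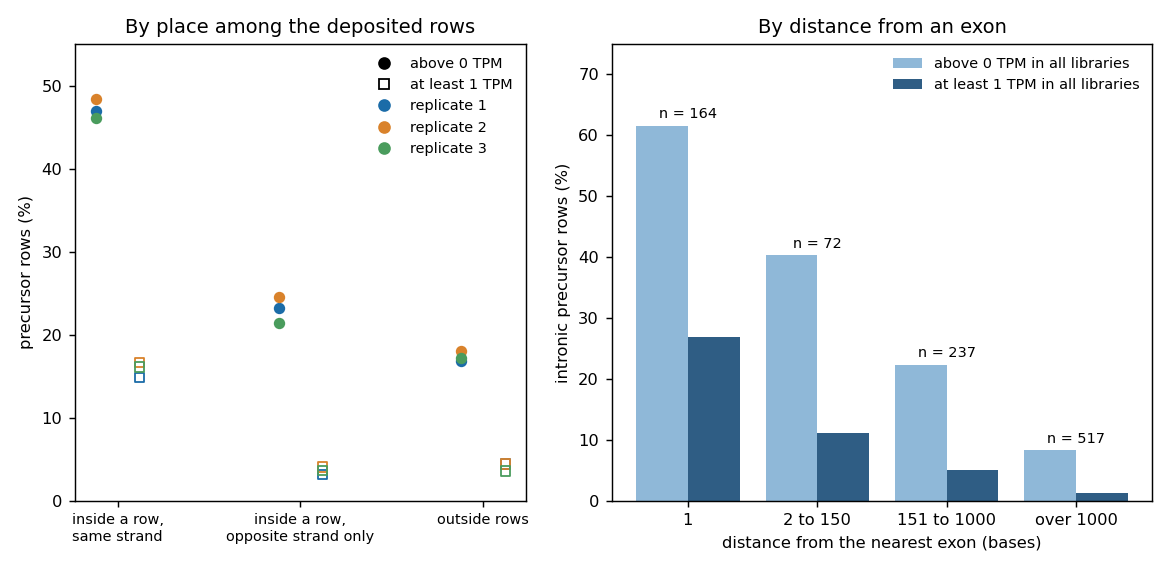
Left, percent of precursor rows (y axis) above 0 TPM (filled points) and at 1 TPM or more (open squares) by place among the deposited rows, 1 point per library. Right, percent of intronic rows (y axis) above 0 and at 1 TPM or more in all libraries by distance from the nearest exon in bases (x axis), where the share at 1 TPM or more falls from 26.8% at the border to 1.35% beyond 1000 bases.

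The last letters of the hairpins go with this position by its definition. Of the 130 rows with an exon directly after the 3p end and a RefSeq hairpin, 129 (99.2%) end in AG. Such a hairpin ends where the intron ends, so this share was largely fixed by the choice of rows and is no separate result. Of all 1503 hairpins matched to a row, 259 (17.2%) end in AG, and of the 128 matched rows with at least 1 TPM in all libraries, 66 (51.6%) do. The search took the last 2 letters of the strand transcribed, and a match is a description of the letters only.

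Precursor rows stood well below their hosts. Over the 800 intragenic rows whose host had a mean of at least 1 TPM, the median log2 ratio of precursor to host, on the log2(TPM + 1) scale, was -3.99, -3.86 and -3.81 in replicates 1, 2 and 3, a mean of -3.89 ± 0.09 (p = 0.25 by the same exact permutation test, the smallest possible). All libraries gave the same direction, but the host minimum and the many precursors at or near 0 favour a negative median. The sign and p are therefore description only. With no host minimum the median was -2.86, and with a pseudocount of 0.1 it was -6.14. With coverage in place of TPM the median was -5.03, and with FPKM it was -3.09. The same pseudocount of 1 was added to each measure, so these medians differ by unit scale too. The median in coverage is thus not a gap corrected for length alone. Among the 130 of the 800 rows with at least 1 TPM in all libraries the median was -3.21 ± 0.08 in TPM.

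A higher host went with more detected precursors. At least 1 TPM in all libraries was reached by 8 of 359 rows (2.23%) in hosts under 1 TPM, 10 of 229 (4.37%) in hosts of 1 to 10 TPM, 74 of 455 (16.3%) at 10 to 100, 41 of 109 (37.6%) at 100 to 1000 and 5 of 7 (71.4%) above that. Spearman's rho between mean precursor and mean host TPM was 0.45 across the 800 rows and 0.25 across the 130 detected ones. These are correlations across genes in the same libraries, and genes are not independent replicates.

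**Figure D4:**
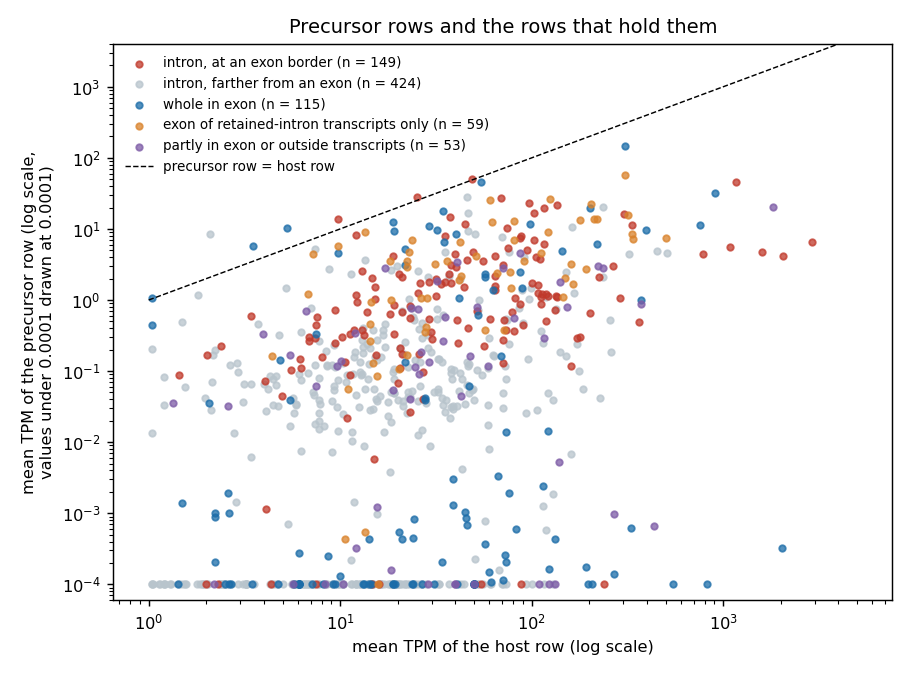
Mean TPM over 3 libraries of each precursor row (y axis, log scale, values under 0.0001 drawn at 0.0001) against that of its host (x axis, log scale) for the 800 rows with a host of at least 1 TPM, coloured by position in GENCODE v44. Rows at an exon border (red) and in retained-intron exons (orange) fill the upper part, while many rows whole in an exon (blue) lie along the bottom at every host level.

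In 3 cases with a host of at least 1 TPM the precursor row was above its host in all libraries, and all 3 hosts were themselves low. MIR3916 had 10.2, 11.1 and 9.43 TPM in LOC112268259 at 5.29 ± 0.175. MIR6859-3 had 12.6, 12.9 and 15.6 TPM in the pseudogene WASH3P at 9.71 ± 0.472. MIR3682 had 8.45, 9.35 and 7.32 TPM in GPR75-ASB3 at 2.10 ± 1.01. With the whole row as length these precursors had means of 2.83, 4.63 and 2.14 TPM, so that MIR3916 and MIR6859-3 were below the TPM of their hosts and MIR3682 was level with that of its host.

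A host listed at 0 TPM in all libraries held 146 precursor rows, and 7 of these had at least 1 TPM in every library. MIR612 had 7.73, 12.2 and 11.3 TPM in NEAT1, the long noncoding RNA that builds paraspeckles, whose row is listed at 0. MIR23A had 1.68, 2.61 and 1.29 TPM, MIR27A 1.57, 1.45 and 1.38, and MIR24-2 1.87, 2.58 and 2.30, all in LOC284454, their common primary transcript, listed at 0. The other rows were MIR4683 with 1.97, 3.02 and 3.90 TPM in the Wnt receptor gene FZD8, MIR4697 with 1.80, 3.45 and 2.78 TPM in MIR4697HG, and MIR3648-1. Except for MIR3648-1 these rows lie wholly in an exon annotated on their strand. Whether each exon is one of the host was not checked, so the bases read in the precursor may also be bases of the host. A listed 0 can be a failed estimate, and no ratio is given against it.

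The reverse was also seen. MIR675 lies in an exon of the imprinted long noncoding RNA H19, which had 110, 130 and 126 TPM, but MIR675 had 0.0140, 0.0134 and 0.0153 TPM. MIR22 lies in an exon of MIR22HG, which had 25.2, 24 and 24.1 TPM, and had 0.000627, 0.000637 and 0.00123 TPM. MIR21 lies in an exon of VMP1, an autophagy gene with 51, 49.7 and 49.8 TPM, and was listed at 0 in every library. Precursor rows in exons were thus found both with TPM above that of a host listed at 0 and far below that of an expressed host. How the quantification shared the reads of such overlapping rows is not given in the sources used here, so the value of a precursor in an exon is uncertain.

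Some high rows share their sequence with other rows. MIR1244-1 to MIR1244-4 have 1 identical hairpin of 85 bases in RefSeq, but MIR1244-2, outside annotated transcripts of its strand, had 49.3, 47.1 and 52.2 TPM, MIR1244-3 had 0.337, 0.238 and 2.76 TPM, and MIR1244-4 0.134, 0.319 and 0.428 TPM. MIR1244-1, in an exon of the prothymosin gene PTMA, had 0.000286, 0.000319 and 0.000357 TPM, while PTMA had 2021 ± 61.6 TPM. MIR6859-1 to MIR6859-4 likewise have 1 hairpin of 68 bases, and their means ranged from 28 ± 4.82 TPM for MIR6859-1 downward. Reads from such copies cannot be told apart by sequence within the hairpin, and the value of each copy is uncertain. MIR4444-1 and MIR4444-2, and MIR1233-1 and MIR1233-2, also share a hairpin.

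Known microRNA families were counted beside all precursor rows, of which 53.2% were at 0 in all libraries, 27% above 0 in all and 8.52% at 1 TPM or more in all. Of 12 let-7 family rows, whose microRNAs restrain growth and pluripotency genes, 2 were at 0 in all libraries, 7 were above 0 in all and 1 had at least 1 TPM. That row was MIRLET7D with 3.89, 3.13 and 6.62 TPM. MIRLET7I followed with 0.693, 0.935 and 0.696 TPM, and MIRLET7F1 had 1.54, 0.287 and 0.160 TPM, so that replicate 1 was high. The remaining 9 rows were under 0.3 TPM on average. Among the 7 rows above 0 in all libraries, MIRLET7B and MIRLET7A3 had at most 0.168 and 0.0537 aligned bases.

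The MIR17 cluster and its paralogs promote proliferation. Of 15 rows, 9 were at 0 in all libraries, near the 53.2% of all precursor rows, and 3 had at least 1 TPM, and these 3 are the MIR25 cluster inside MCM7, the gene of a replicative helicase subunit with 233, 239 and 234 TPM. MIR25 had 17.7, 20.6 and 21.8 TPM, MIR93 1.91, 4.14 and 2.30, and MIR106B 2.19, 1.25 and 2.91. MIR25 was above MIR93 and MIR106B in every library, while the latter 2 overlapped. The 5p arms of MIR93 and MIR106B, printed above, share the seed AAAGUGC. By contrast, none of the 6 rows inside MIR17HG was above 0 in all libraries, although MIR17HG had 5.57, 7.32 and 5.44 TPM.

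Of 18 rows tied to liver and liver cancer, 8 were at 0 in all libraries, 6 were above 0 in all and none had at least 1 TPM in all, against 53.2%, 27% and 8.52% of all precursor rows. The list was thus no emptier than precursor rows in general. MIR122, the hepatocyte microRNA, was listed at 0 in every library, as were 5 of the 8 hepatocyte genes above. MIR21 and MIR483 were at 0 as well, the latter in IGF2, which did not exceed 0.0384 TPM. The highest row was MIR33B, in an intron of SREBF1, the sterol-regulated transcription factor gene, with 0.359, 1.14 and 1.64 TPM. SREBF1 itself had 96.6 ± 2.26 TPM, and MIR6777, at an exon border of the same gene, had 27.9, 18.0 and 23.2 TPM.

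In the lists of other lineages the counts at 0 stand against 53.2% of all precursor rows. Among 6 epithelial rows, the MIR200 family, MIR141 and MIR205, 5 were at 0 and the highest mean was 0.00370 TPM, and of 3 p53-responsive rows, the MIR34 family, 2 were at 0 and none had more than 4.1e-05 TPM. Of 9 pluripotency rows 7 were at 0. Of 24 rows of muscle, blood, endothelium and neurons 19 were at 0 and 1, MIR499A, was above 0 in all libraries, with 1.28, 0.492 and 0.265 TPM. The rows in HOX clusters went the other way: of 6, none was at 0 throughout, 4 were above 0 in all libraries and 1, MIR196A1, had at least 1 TPM, with 2.62, 3.20 and 1.14. Of those 4, MIR196B and MIR10B had under 1 aligned base in replicates 1 and 2. All 46 rows of the chromosome 19 cluster, active in placenta, and all 52 rows of the chromosome 14 imprinted cluster between MEG3 and MEG9 were at 0 in all libraries.

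For hairpins that form part of other processed RNAs, the counts stand against 27% of all precursor rows above 0 and 8.52% at 1 TPM or more in all libraries. Of 6 mirtron rows, 5 were above 0 in all libraries and 3 had at least 1 TPM. Of the 5, MIR1227 had at most 0.00475 aligned bases. MIR877 had 8.99, 4.63 and 10.2 TPM in ABCF1 at 88.4 ± 2.01, MIR1226 had 6.07, 1.75 and 8.57 TPM in the RNA helicase gene DHX30 at 75.4 ± 4.47, and MIR1225 had 3.41, 5.06 and 4.06 TPM in PKD1, the polycystin gene, at 18.9 ± 0.887. Of 6 rows that overlap small nucleolar or Cajal body RNAs 5 were above 0 and 2 had at least 1 TPM, namely MIR1248 with 16.2, 11.8 and 12.5 TPM in EIF4A2 and MIR1291 with 2.29, 1.70 and 1.65 TPM in KANSL2. Of 6 rows within ribosomal RNA units 5 were above 0 and 2 had at least 1 TPM, MIR3648-1 and MIR3648-2. These lists hold 6 rows each, and no test was made on them. MIR664B, among the 5 above 0 that overlap small nucleolar or Cajal body RNAs, had at most 0.00116 aligned bases.

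**Figure D5:**
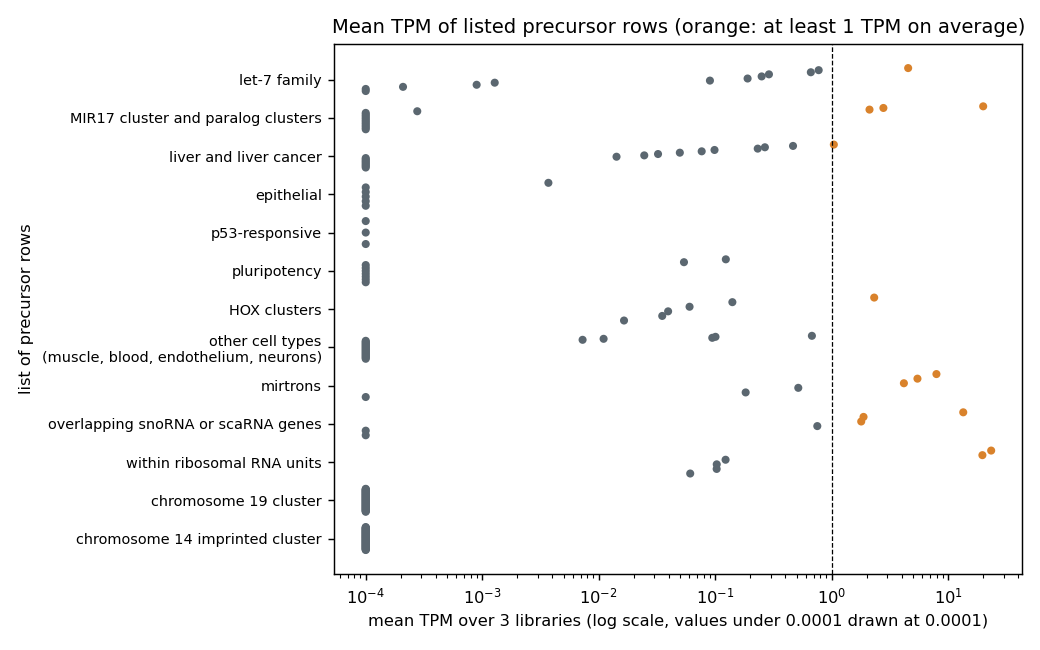
Mean TPM over 3 libraries (x axis, log scale, values under 0.0001 drawn at 0.0001) of each precursor row in 13 lists (y axis), with rows of at least 1 TPM on average in orange and a dashed line at 1 TPM. The chromosome 19 and chromosome 14 clusters lie at 0 throughout. The rows past 1 TPM include 3 mirtrons and the 3 rows of the MIR25 cluster, and also rows of other lists such as MIRLET7D, MIR196A1, MIR1248 and MIR3648-1.

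Host genes of well-known microRNAs ranged from 0 to high levels. Of 99 listed host rows, 46 had at least 1 TPM in all libraries and 33 were at 0. The rows of these hosts held 150 precursors, of which 85 were at 0 in all libraries and 8 had at least 1 TPM in all, near the 53.2% and 8.52% of all precursor rows. Of the 85, 75 lay in hosts under 10 TPM. In the 28 hosts of at least 10 TPM, 10 of 38 precursors were at 0 in all libraries, 14 were above 0 in all and 5 had at least 1 TPM. These were MIR25, MIR93, MIR106B, MIR6777 and MIR590, which had 3.97, 5.88 and 4.75 TPM in the translation factor gene EIF4H, the highest listed host with 450 ± 15.3 TPM. In SMC4, a condensin gene with 137, 125 and 126 TPM, MIR16-2 was at 0 in every library and MIR15B in 2 of 3. MIR103A1 was at 0 in every library in PANK3, a gene of coenzyme A synthesis. In the chloride channel gene CLCN5, with 5.87 ± 0.487 TPM, none of the 8 precursors was above 0 in all libraries.

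Precursor rows varied more between libraries than other rows. The range of log2(TPM + 1) over the 3 libraries was above 1 in 68 of the 223 precursor rows (30.5%) that averaged 1 TPM or more, against 1.26% of all such rows. Over 2 libraries the count was 38 without replicate 1, 41 without replicate 2 and 31 without replicate 3, since fewer libraries give smaller ranges. It was 5 among rows averaging 10 TPM or more, and 105 of the 223 with a pseudocount of 0.1. Matching counts over all rows were not made for these alternatives, so only the 30.5% can be set against all rows. The coefficient of variation of the 158 rows with at least 1 TPM in all libraries had a median of 23.5%, with an interquartile range of 15% to 38.4%, against 5.95% over 13307 rows. Precursor rows are shorter and lower than most rows, and the part of depth in this spread was not tested.

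The largest ranges came from 1 library at a time. MIR6728, in the enolase gene ENO1, had 0.268, 0.745 and 18.9 TPM, while ENO1 had 2868, 2864 and 2977 TPM. MIR4657 had 14.3 and 13.3 TPM in replicates 1 and 2 and 0 in replicate 3, in PURB, which was listed at 0. MIR6753 had 2.21, 26.1 and 15.3 TPM in TCIRG1, a proton pump subunit gene with 37.4 ± 1.94 TPM. ENO1 and TCIRG1 did not move with these rows, and a host listed at 0 shows nothing of this.

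Further down this order, MIR3648-1 and its copy MIR3648-2 moved together, with 15.7, 47.4 and 7.25 TPM and 13.2, 39.4 and 6.51 TPM. MIR6893 had 0.943, 0.132 and 5.15 TPM in TONSL, MIR3650 0.115, 4.14 and 0.123 TPM in LIFR, and MIR3934 3.87, 4.95 and 0.430 TPM. MIR6726 had 2.56, 0 and 2.86 TPM in ACAP3, and MIR942 3.47, 3.89 and 0.284 TPM in TTF2, the gene of a transcription termination factor. No library was the odd one throughout. A value of 0 in 1 library with at least 1 TPM in the other two was listed for 6 rows.

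The length behind the FPKM also changed between libraries in the variable rows. Among rows above 0 in every library with a mean of at least 1 TPM, this length differed by over 1 base between libraries in 29 of the 62 rows (46.8%) with a range above 1 and in 10 of the 155 others (6.45%). MIR3936 gave 22, 87 and 22 bases in replicates 1, 2 and 3, its TPM was 9.19, 1.92 and 6.02, and its TPM over the whole row was 1.84, 1.51 and 1.2. The highest value of MIR3936 was thus 4.80 times the lowest in TPM but 1.53 times over the whole row. MIR421, in the long noncoding RNA FTX, gave 23.0, 23.0 and 70.0 bases with TPM of 1.59, 1.32 and 0.239, and its ratio of highest to lowest was 6.67 in TPM and 2.19 over the whole row. In MIR1226 the length was 26, 22 and 26 bases, the lengths of its 5p arm of 26 bases in replicates 1 and 3 and of its 3p arm of 22 bases in replicate 2, where its TPM was lowest. Over the 62 rows the median ratio of highest to lowest was 4.82 in TPM and 4.21 over the whole row, and over the 155 others it was 1.57 by both measures.

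Shared seeds were few among the detected rows. For 144 of the 158 rows with at least 1 TPM in all libraries RefSeq lists an arm, and these arms hold 226 different seeds, of which 11 occur in more than 1 row. The most frequent was AGAGGAA, in MIR3916 and in MIR6859-1 to MIR6859-4. GGGAAAG occurs in MIR3153, MIR6733 and MIR6739, and GGCCCUG in MIR6775 and MIR1291.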

How the data were processed

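The data are 3 RNA-seq libraries labelled as wild-type HepG2. Per the submitters' processing notes and the methods of the study, the authors used FastQC (0.11.8), Trim Galore (0.6.2), STAR (2.6.1a) with GRCh38 and StringTie, and deposited 1 table of genes per library. Among the deposited measures, coverage gives the mean read depth of a row without any scaling. Deposited FPKM is scaled by length and by library size. Deposited TPM is FPKM brought to 1 total. The annotation and the strand setting are not given in the sources used here. The files hold no counts, so the error given is the SD between the 3 libraries.

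Rows of the tables were matched by name, strand and coordinates, which left out 10 entries, and 136 precursor rows on alternate or unplaced sequences were not used. The host is the shortest other row that holds the whole precursor on the same strand (20 rows have several). Aligned bases are coverage times row length. The length behind the FPKM is coverage per FPKM, divided by its most frequent value in the library and multiplied by row length. Exons were taken from GENCODE v44, which is not known to be the authors' annotation. RefSeq sequences (GRCh38.p14) matched 1503 rows by hairpin and gave an arm for 1685 of 1855. Libraries were the unit of the sign-flip test. The calculations were tested on simulated data and used Python 3.11.15, numpy 2.4.6, pandas 2.3.3, scipy 1.17.1 and matplotlib 3.10.9.

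The rows named were the 15 with the highest mean TPM, the 10 with the largest range of log2(TPM + 1) among rows averaging 1 TPM or more, and members of written lists with at least 1 TPM in all libraries or, where defining, at 0. Other rows were named after their values were seen. The members and the lists were chosen with earlier results of these data known. Alternatives were other minimum values, pseudocounts and scalings, other definitions of the host, coverage or FPKM in place of TPM, and leaving out each replicate.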

Additional observations from a re-analysis of the deposited data

How the results depend on the processing

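When 1 replicate was left out at a time, the rows above 0 TPM in all libraries numbered 544 to 563 in place of 500, those of at least 1 TPM 166 to 179 in place of 158, the difference in share 27.8 to 28.2 percentage points, the median log2 ratio to the host -3.93 to -3.84, and the summed TPM 1821 to 1912. The rows with a range above 1, 68 with all libraries, numbered 31 to 41, since a range over 2 libraries cannot exceed that over 3. Requiring 22 aligned bases in every library, an alternative added after the data were seen, left 318 rows above 0. A minimum of 0.1 TPM gave 320 rows and of 10 TPM 31 rows in place of 158. TPM recomputed over the whole row, also added later, gave 91 rows and a summed TPM of 567, and scaling without mitochondrially encoded rows gave 2349 and 174 rows. The rows with a range above 1 numbered 5 at a mean of at least 10 TPM and 105 with a pseudocount of 0.1, without matching counts over all rows. The difference in share was 11.9 to 28.9 points and the median log2 ratio -6.14 to -2.86 under the other alternatives, all in the same direction. Median-of-ratios scaling moved none of the 15 highest rows by more than the spread of its libraries. Without mitochondrially encoded rows, which raises every TPM by a factor of 1.25, 14 of the 15 moved by more than that.

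No paired analysis was possible because all 3 libraries belong to 1 condition. The sign-flip test over 3 libraries cannot reach 0.05. Its smallest p is 0.25, or 0.5 with a library left out. Read depth is not known, so no detection limit can be given for a row listed at 0. Hairpins shorter than a read, overlapping rows and identical copies make the value of a single precursor uncertain.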
